A study of Mus musculus with 20 samples.

Results

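The 10 genes described here mark T cells and regulatory T cells: the CD3 chains Cd3d, Cd3e and Cd3g, the coreceptors Cd4, Cd8a and Cd8b1, the regulatory T factor Foxp3, the interleukin-2 receptor alpha chain Il2ra, and the costimulatory receptors Cd28 and Icos. They were taken from a named list, matched by symbol to the mouse Ensembl identifiers of the count table, and all 10 were found among its 52783 genes. The libraries come from primary tumours grown in adult female BALB/cJ mice after injection of 1000000 cells into the mammary fat pad. Both lines belong to the 4T1 family of mouse mammary carcinoma: 66cl4 forms metastatic tumours and 67NR non-metastatic ones, and the hosts are immunocompetent. Each tumour was dissociated and sorted by CD45, a surface protein of all leukocytes, into CD45+ (immune) and CD45- (other) cells, which gave 4 groups of 5 libraries from 10 animals, none of them given a treatment. Each tumour type rests on 1 cell line, so the metastatic capacity and any other property of the line cannot be told apart.

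A T cell recognises peptides through its T cell receptor, and the CD3 chains carry the signal of that receptor into the cell. CD4 and CD8 bind the MHC molecule that presents the peptide and divide T cells into helper and cytotoxic types, while CD28 and ICOS deliver costimulation. Regulatory T cells are CD4+ cells that restrain other lymphocytes in tumours. Their identity depends on the transcription factor FOXP3, and they carry high amounts of CD25, the product of Il2ra.

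The 3 CD3 genes share 1 stretch of chromosome 9, and their promoters are shown because these genes define the lineage and their levels were read against each other in the results. The Cd3g and Cd3d start sites lie head to head, 1355 bases apart, and the Cd3e start site lies 27825 bases from that of Cd3d. Each sequence runs 5′ to 3′ on the strand of its gene, from 250 bases before the start site to 50 bases after it (300 bases, RefSeq, GRCm38.p6). Capitals mark the ETS core AGGAAG or its reverse complement CTTCCT. The windows are chr9:44981536-44981835 on the plus strand for Cd3d, chr9:45009562-45009861 on the minus strand for Cd3e and chr9:44980382-44980681 on the minus strand for Cd3g.
Cd3d: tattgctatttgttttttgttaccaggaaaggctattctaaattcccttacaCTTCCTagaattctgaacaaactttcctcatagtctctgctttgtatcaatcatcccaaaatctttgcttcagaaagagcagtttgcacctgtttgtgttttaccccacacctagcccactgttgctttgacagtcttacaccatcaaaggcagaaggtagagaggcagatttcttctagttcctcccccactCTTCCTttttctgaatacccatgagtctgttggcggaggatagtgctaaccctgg
Cd3e: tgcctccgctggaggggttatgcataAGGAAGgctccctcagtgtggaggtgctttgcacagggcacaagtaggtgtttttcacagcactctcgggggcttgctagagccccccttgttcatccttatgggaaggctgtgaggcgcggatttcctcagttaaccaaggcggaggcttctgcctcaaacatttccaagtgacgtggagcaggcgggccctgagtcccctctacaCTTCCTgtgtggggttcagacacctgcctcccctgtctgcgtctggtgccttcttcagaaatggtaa
Cd3g: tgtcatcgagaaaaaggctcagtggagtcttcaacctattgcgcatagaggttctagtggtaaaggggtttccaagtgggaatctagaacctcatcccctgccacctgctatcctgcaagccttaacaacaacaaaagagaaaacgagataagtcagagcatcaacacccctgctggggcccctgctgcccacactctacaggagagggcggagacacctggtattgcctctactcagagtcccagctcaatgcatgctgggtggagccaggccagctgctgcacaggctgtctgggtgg
The ETS core stood at 2 places in the Cd3d window and at 2 in the Cd3e window, and these letters were not in the Cd3g window. On either strand, 35.4% of the 32851 promoters of this length held it. Of the other motifs searched on both strands, whose matches in the 3 windows did not overlap, the RUNX core TGTGGT (16.8% of all promoters) was in none of the 3 windows, and neither was the TATA box TATAAA (13.6%). The GATA core AGATAA (11.2%) and the E-box CAGCTG (16.3%) each stood at 1 place in the Cd3g window. Promoter entries were found for 6 of the 10 genes. Those not found were Cd4, Cd8b1, Cd28 and Icos.

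Depth was similar across the series, with 12960000 to 28080314 estimated counts per library. Ptprc, which encodes CD45, checked the sort: it stood at 15890 to 28449 normalised counts in CD45+ libraries and at 10.6 to 473.4 in CD45- libraries. Normalised counts are estimated counts divided by a size factor for each library. The labels of 66cl4 animals 5 and 6 name opposite gates in their title and their cell type. These 4 libraries were grouped by title, which their Ptprc levels follow, and results were also computed without them.

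All 10 genes were found almost entirely in the CD45+ cells of both tumours (the plot of levels by group). Expressed per length of transcript, as TPM, a transcript's share of all transcripts in the library scaled to 1000000, Cd3g had the highest mean level in CD45+ cells of both tumours, at 85.7 ± 41.8 TPM (SD, n = 5) in 66cl4 and 113.3 ± 50.1 TPM in 67NR. Icos, Cd3d and Cd3e followed, with mean levels of 35.9 to 43.6 TPM in 66cl4 and 24.6 to 29.8 TPM in 67NR. Cd8b1, Il2ra, Cd8a, Cd4, Foxp3 and Cd28 lay lower, at 11.4 to 19.9 TPM in 66cl4 and 8.003 to 15.3 TPM in 67NR. Within each of these sets, the gap between neighbours in the order was smaller than the larger of their SDs.

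**Figure D1:**
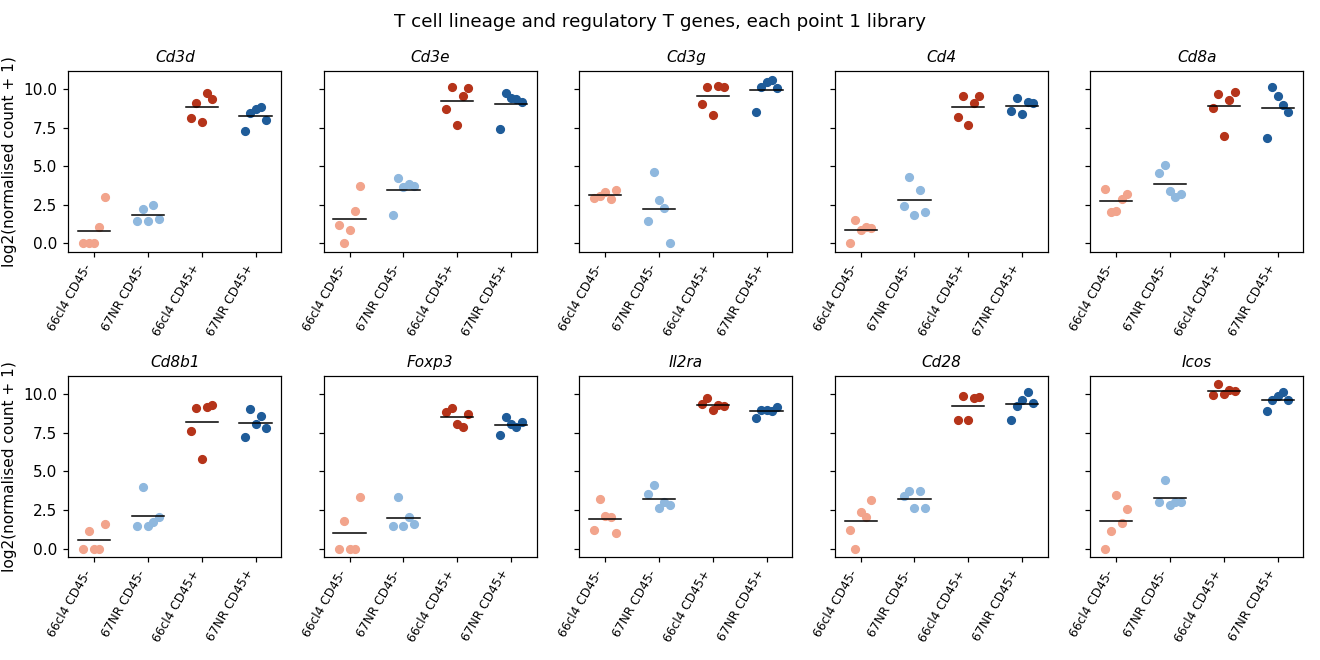
Level of each gene in the 20 libraries, as log2(normalised count + 1) on the vertical axis, with 1 point per library and a bar at the mean of each group of 5. In every panel the CD45+ libraries of both tumours sit above all CD45- libraries, and the CD45+ groups of the 2 tumours overlap.

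In 66cl4 tumours, the mean CD45- level of the 10 genes was 0.161 to 1.08% of the mean CD45+ level, and in 67NR tumours it was 0.637 to 2.84%. The same share for Ptprc was 0.385% in 66cl4 and 1.22% in 67NR. The log2 fold change of CD45+ over CD45- cells ran from 6.61 for Cd8a to 8.88 for Cd8b1 in 66cl4, and from 5.11 for Cd8a to 7.18 for Cd3g in 67NR. All 10 genes were called higher in CD45+ cells in both tumours (edgeR's quasi-likelihood test, adjusted p at most 4.54e-06 in 66cl4 and 3.57e-05 in 67NR), and each was higher in 5 of 5 animals of both. Of all genes tested, 44.4% were called in 66cl4 and 39.8% in 67NR, in either direction. These tests did not pair the 2 gates of an animal. With that pairing all 10 genes were still called in both tumours (edgeR adjusted p at most 8.52e-06 in 66cl4 and 0.000232 in 67NR). Since each gene passed the filter on low counts through its CD45+ libraries, these counts describe the sort and are not read further.

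The question of most interest for these genes was whether immune cells of the metastatic and the non-metastatic tumour differ in their T cell transcripts. None of the 10 genes was called different between 66cl4 CD45+ and 67NR CD45+ cells, where a call required a change of more than 1 on the log2 scale in either direction together with an adjusted p under 0.05. Over all 14676 genes tested, 11.8% were called. For all 10 genes the libraries of the tumours overlapped, whereas 15.1% of all genes did not overlap. The median log2 fold change of the 10 genes was 0.346, and that of all genes tested 0.00975. At an unadjusted p under 0.05, edgeR placed 2 of the 10, Il2ra and Icos, and DESeq2 called none of the 10 either. In bulk samples, fewer cells of a type and less RNA per cell cannot be told apart.

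The CD3 chains varied more between animals than between tumours. Cd3e, the epsilon chain that every T cell receptor complex needs, stood at 411.7, 1117, 201.5, 737.6 and 1048 normalised counts in 66cl4 CD45+ animals 3 to 7. In 67NR CD45+ animals 1, 4, 5, 6 and 7 it stood at 165.4, 850.7, 694.2, 649.5 and 557.6. One library was low in each tumour, 66cl4 animal 5 and 67NR animal 1, and the other libraries overlapped across the tumours. The log2 fold change of Cd3e, 66cl4 over 67NR, was 0.29 (SE 0.490, 95% interval -0.79 to 1.38, edgeR adjusted p 0.72).

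Cd3d, the delta chain, stood at 279.6, 538.0, 230.4, 853.3 and 657.6 normalised counts in 66cl4 and at 153.0, 339.6, 411.6, 444.6 and 249.0 in 67NR. The 3 highest libraries were all of 66cl4, and its log2 fold change was 0.70 (SE 0.387, interval -0.16 to 1.55, edgeR adjusted p 0.23). Cd3g, the gamma chain, stood at 523.0, 1106, 310.5, 1155 and 1109.7 normalised counts in 66cl4 and at 366.8, 1113, 1414, 1528 and 1086 in 67NR. Here the 2 highest libraries were of 67NR, and the log2 fold change had the other sign, at -0.36 (SE 0.422, interval -1.30 to 0.57, edgeR adjusted p 0.586).

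The coreceptors did not separate the tumours, and the CD8 chains showed the widest spread of all 10 genes. Cd4, the coreceptor of helper and regulatory T cells, also found on some myeloid cells, stood at 287.9, 740.5, 197.7, 545.0 and 756.4 normalised counts in 66cl4 and at 371.5, 676.0, 338.4, 565.6 and 543.2 in 67NR. The 67NR libraries lay inside the range of those of 66cl4, with a log2 fold change of 0.04 (SE 0.362, interval -0.76 to 0.84, edgeR adjusted p 0.954). Cd8a, the CD8 alpha chain, which dendritic cells and some innate lymphocytes can also express, stood at 442.3, 828.4, 122.5, 621.8 and 901.0 in 66cl4 and at 113.9, 1139.8, 731.8, 497.3 and 354.9 in 67NR. Its lowest library in each tumour was again 66cl4 animal 5 and 67NR animal 1, and the log2 fold change was 0.06 (SE 0.595, interval -1.26 to 1.37, edgeR adjusted p 0.964).

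Cd8b1, the CD8 beta chain, which is more restricted to cytotoxic T cells, stood at 194.7, 551.3, 54.0, 588.2 and 621.2 normalised counts in 66cl4 and at 146.7, 521.0, 268.3, 387.0 and 221.2 in 67NR. The 3 highest libraries were of 66cl4 and so was the lowest, which gave an 11.5-fold range within that tumour. Its log2 fold change was 0.40 (SE 0.572, interval -0.87 to 1.66, edgeR adjusted p 0.669).

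The regulatory T genes were steadier. Foxp3 stood at 452.0, 551.3, 264.2, 237.8 and 415.0 normalised counts in 66cl4 and at 165.4, 370.4, 270.3, 238.5 and 295.3 in 67NR. The 3 highest libraries were of 66cl4, whereas its animals 5 and 6 lay inside the range of 67NR. The log2 fold change of Foxp3 was 0.54 (SE 0.258, interval -0.03 to 1.098, edgeR adjusted p 0.163). Without animals 5 and 6, whose labels conflict, it was 0.82 with an adjusted p of 0.0393, still below the fold required for a call. Across all alternatives its adjusted p ran from 0.0393 to 0.341.

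Il2ra stood at 663.4, 853.3, 494.6, 630.2 and 598.4 normalised counts in 66cl4 and at 344.9, 497.9, 493.9, 486.5 and 565.8 in 67NR. Of the 66cl4 libraries, 4 lay above every 67NR library, and animal 5 lay among the latter. The log2 fold change of Il2ra was 0.46 (SE 0.159, interval 0.11 to 0.80, edgeR adjusted p 0.0576, and 0.031 to 0.237 across the alternatives). The value of 0.237 came from a block on the animal number, which pairs nothing between tumours. Leaving out single libraries gave an edgeR adjusted p of at most 0.133.

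Cd28, the receptor for CD80 and CD86, stood at 324.1, 943.1, 323.0, 867.0 and 910.3 normalised counts in 66cl4 and at 321.5, 593.5, 771.4, 1107 and 689.3 in 67NR. It did not separate the tumours, with a log2 fold change of -0.02 (SE 0.389, interval -0.88 to 0.84, edgeR adjusted p 0.977). Icos, the receptor for ICOS ligand, stood at 986.1, 1601, 1049, 1223 and 1161 normalised counts in 66cl4 and at 477.6, 787.0, 955.4, 1112.0 and 785.0 in 67NR. Only 67NR animal 6 reached the range of the 66cl4 libraries, and the log2 fold change of Icos was 0.57 (SE 0.202, interval 0.13 to 1.01, edgeR adjusted p 0.064, and 0.0338 to 0.141 across the alternatives).

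**Figure D2:**
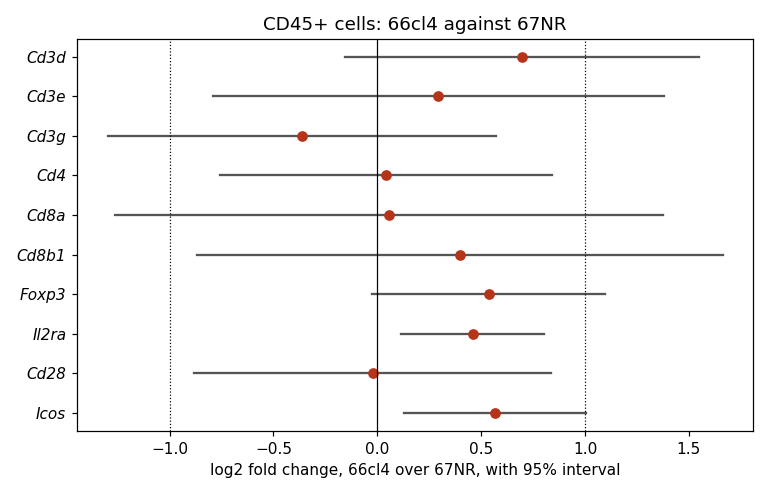
Log2 fold change of each gene in CD45+ cells, 66cl4 over 67NR, on the horizontal axis, with points for the edgeR estimate and lines for its 95% interval. Dotted lines mark an absolute log2 fold change of 1. The intervals of Il2ra and Icos lie above 0, and those of the other 8 genes include 0.

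The spread between animals differed sharply among the 10 genes. The SD of the log2 level within a tumour, pooled over both, was 1.18 for Cd8a, 1.13 for Cd8b1, 0.962 for Cd3e and 0.822 for Cd3g, against a median of 0.287 over all 14676 genes tested, and at least 95.7% of the genes had a smaller SD than each of these 4. Cd28 had an SD of 0.72, Cd3d of 0.704 and Cd4 of 0.669. That of Foxp3 was 0.46, and 80.5% of the genes had a smaller one. Icos had an SD of 0.362 and Il2ra of 0.259, the latter below the median gene. The lowest levels of most of the 10 genes fell in the same libraries. In 66cl4, animal 5 had the lowest level of 8 of the 10 genes, and in 67NR, animal 1 had the lowest level of 9 of 10.

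Genes of other lymphocyte types were also low in these libraries. The summed level of the 6 B cell markers was 11.7 and 8.83 CPM, its share of all counts scaled to 1000000, in animals 3 and 5, the libraries with the least Cd3e, and 387.9 to 1009 CPM in animals 4, 6 and 7. In 67NR it was 19.95 CPM in animal 1 and 31.3 to 174.5 CPM in the others. The natural killer markers summed to 69.5 and 91.0 CPM in 66cl4 animals 3 and 5 against 127.1 to 187.5 CPM in the other 66cl4 libraries, and to 137.6 CPM in 67NR animal 1 against 385.9 to 1016 CPM in the other 67NR libraries. Neutrophil markers did not follow one order in both tumours. They summed to 2723 CPM in 67NR animal 1 and to 386.8 to 1483 CPM in the other 67NR libraries, whereas in 66cl4 they summed to 6043 and 6841 CPM in animals 3 and 5, to 6159 CPM in animal 6, which had the most Cd3d, and to 3364 and 2486 CPM in animals 4 and 7. Their part in the spread of the T cell genes was not tested.

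**Figure D3:**
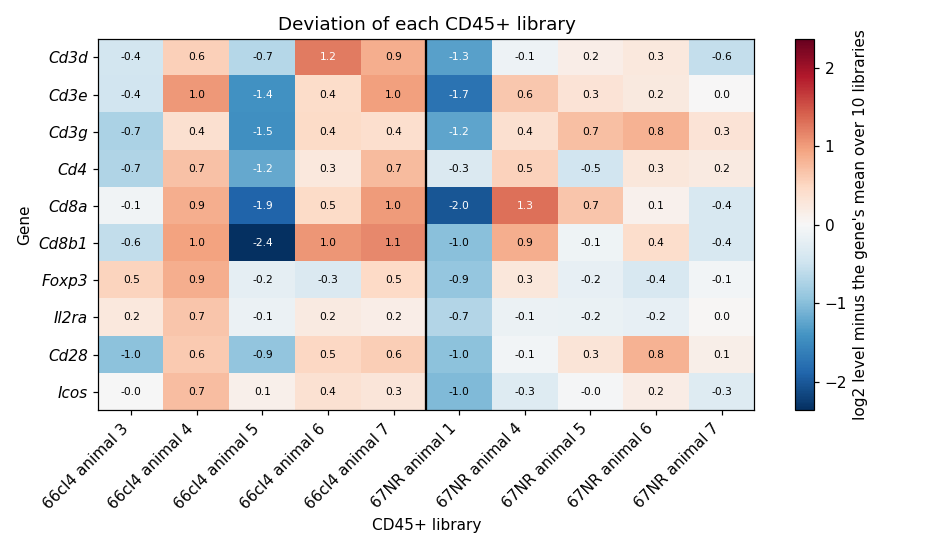
Deviation of the log2 level of each gene (rows) in each CD45+ library (columns) from the mean of that gene over the 10 libraries, with red above and blue below the mean and a line between the tumours. Columns 66cl4 animal 5 and 67NR animal 1 are blue for most genes, and Cd8a and Cd8b1 show the deepest values.

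Set against Cd3e, the regulatory and activation genes were relatively high where T cell transcripts were few. The ratio of Foxp3 to Cd3e, in normalised counts, was 1.098, 0.494, 1.31, 0.322 and 0.396 in 66cl4 animals 3 to 7, and 1, 0.435, 0.390, 0.367 and 0.530 in 67NR animals 1, 4, 5, 6 and 7. The 3 ratios of at least 1 belonged to the 3 libraries with the least Cd3e, and the tumours overlapped. Because Cd3e is the denominator, this pattern is in part fixed by its own level and no test was made.

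The ratio of Il2ra to Cd3e was likewise highest in 66cl4 animals 3 and 5 (1.61 and 2.455) and in 67NR animal 1 (2.085), with 0.571 to 1.015 in the other 7 libraries. For Icos to Cd3e the same 3 libraries stood at 2.40, 5.21 and 2.89, against 0.925 to 1.71 in the others. The ratio of Cd28 to Cd3e did not order the libraries in this way, as 66cl4 animal 3 had 0.787, near the low end of the range of 0.698 to 1.94. The mean ratios of the tumours overlapped in their SDs, for example 0.724 ± 0.449 in 66cl4 and 0.544 ± 0.262 in 67NR for Foxp3 to Cd3e (SD, n = 5).

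The balance of CD8 and CD4 transcripts also overlapped between tumours. The ratio of Cd8b1 to Cd4 was 0.676, 0.744, 0.273, 1.08 and 0.821 in 66cl4 animals 3 to 7 and 0.395, 0.771, 0.793, 0.684 and 0.407 in 67NR animals 1, 4, 5, 6 and 7. It was lowest in 66cl4 animal 5 and 67NR animal 1, both low in Cd3e, with 67NR animal 7 close to the latter. In 66cl4 animal 3, also low in Cd3e, it was 0.676. The ratio of the CD8 chains, Cd8b1 to Cd8a, was 0.440 to 0.946 in 66cl4 and 0.367 to 1.29 in 67NR. The ratio of Cd4 to Cd3e was 0.663 to 0.981 in 66cl4 and 0.488 to 0.974 in 4 of the 67NR libraries, with 2.245 in 67NR animal 1. The ratio of Cd8a to Cd3e, 0.608 to 1.07 in 66cl4 and 0.636 to 1.34 in 67NR, also overlapped between the tumours.

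**Figure D4:**
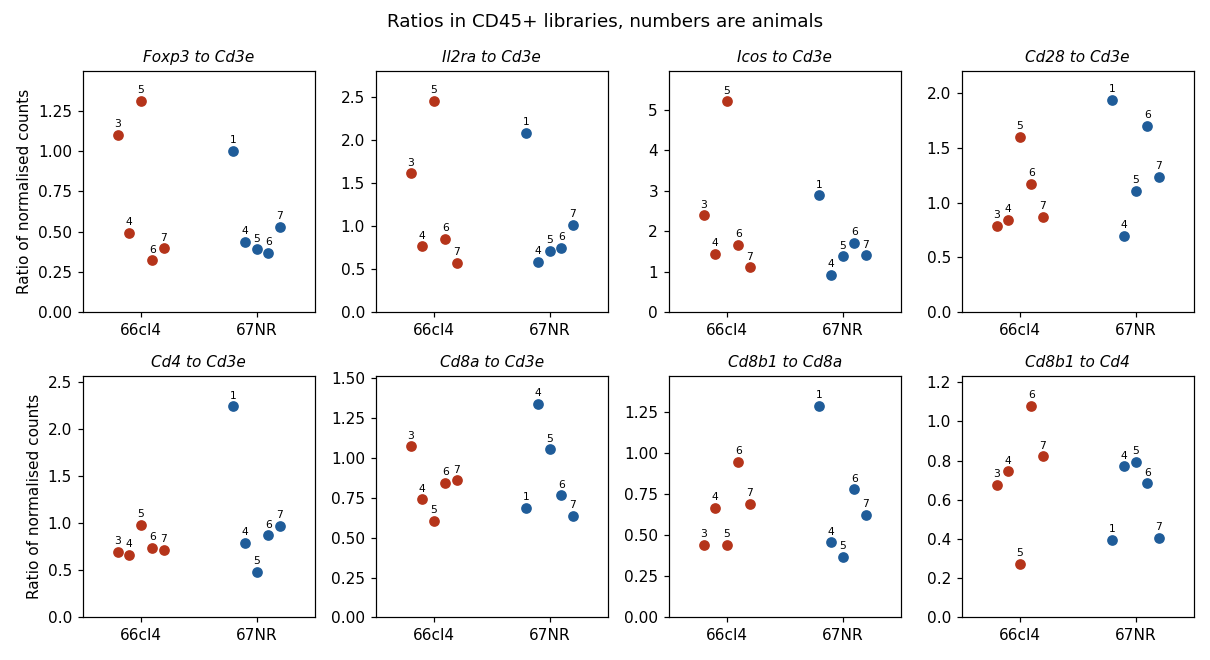
Ratios of normalised counts in the CD45+ libraries, 1 panel per ratio, with the tumours side by side, 1 point per library and the animal number above it. Animals 3 and 5 of 66cl4 and animal 1 of 67NR lie above the others for Foxp3, Il2ra and Icos over Cd3e, and the tumours overlap in all 8 panels.

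Other genes of the T cell programme gave the background to these results. Among 7 constant genes of the T cell receptor chains, none was called higher in 66cl4 CD45+ cells and 2 were called lower (median log2 fold change -0.56). Both encode chains of the gamma-delta receptor, which is carried by a separate, innate-like T cell class: Trdc fell by 2.03 on the log2 scale (SE 0.510, edgeR adjusted p 0.0175), from 596.2 to 5325 normalised counts in 67NR to 404.7 to 933.1 in 66cl4, and Tcrg-C1 fell by 1.23 (SE 0.333, adjusted p 0.0207). The other gamma chain genes, Tcrg-C2 (-0.63, adjusted p 0.404) and Tcrg-C4 (0.02, 0.977), were not called. The alpha-beta chains Trac (0.50, adjusted p 0.469), Trbc1 (-0.56, 0.48) and Trbc2 (0.15, 0.881) did not pass. The calls of Trdc and Tcrg-C1 were lost without 66cl4 animals 5 and 6 (adjusted p 0.0852 and 0.116), and that of Tcrg-C1 also without 66cl4 animal 5 alone (0.0544) or 67NR animal 5 (0.0593).

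None of 20 genes of T cell receptor signalling was called in either direction, with a median log2 fold change of -0.17. The genes of this list with the most normalised counts, not corrected for length, which other leukocytes also use, were the adaptor Lcp2 (0.04, SE 0.188, edgeR adjusted p 0.902) and the Ras activator Rasgrp1 (-0.30, SE 0.298, adjusted p 0.508). Of 12 genes associated with regulatory T cells, 11 were tested and none was called (median 0.05). Tnfrsf9, the costimulatory receptor 4-1BB, had 0.33 (SE 0.268, adjusted p 0.42), and Ctla4, an inhibitory receptor that regulatory T cells carry, had 0.05 (SE 0.258, adjusted p 0.924). Ctla4 stood at 475.4 to 851.4 normalised counts in 66cl4 and at 391.8 to 929.9 in 67NR, so that the range of 67NR enclosed that of 66cl4.

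The partners of Cd28, Icos and Il2ra moved in both directions. Of 9 tested, Cd80, a ligand of CD28 on antigen-presenting cells, was called higher in 66cl4 (log2 fold change 2.19, SE 0.278, edgeR adjusted p 0.00041). It stood at 1817 to 4775 normalised counts against 454.7 to 933.4 in 67NR, with no overlap. In 67NR Cd80 was not confined to CD45+ cells. Its mean CD45+ level was 3.24 times the CD45- level there, and 179.4 times in 66cl4. Il2rb, the beta chain of the interleukin-2 receptor, was called lower (-1.96, SE 0.529, adjusted p 0.0237), and this call was lost without 66cl4 animal 3 (0.0541) and without animals 5 and 6 (0.101). Cd86, the other CD28 ligand, and Icosl, the ligand of ICOS, had adjusted p under 0.05 with log2 fold changes of 0.83 and 0.70, which are below the fold required for a call. The median of the 9 was 0.20.

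Of 13 T lineage transcription factors, 1 was called higher and 2 lower (median 0.395). Tbx21, which encodes T-bet, the factor of type 1 and cytotoxic lymphocytes, fell by 2.26 on the log2 scale (SE 0.572, edgeR adjusted p 0.0179), and Eomes, its close relative, fell by 2.07 (SE 0.550, adjusted p 0.022). Eomes was not confined to CD45+ cells in 66cl4, where its mean CD45+ level was 0.896 of the CD45- level and the gates overlapped. The same ratio was 175.1 for Eomes in 67NR and 113 for Tbx21 in 66cl4. Natural killer cells also use both factors and Il2rb, and 5 of 5 tested natural killer markers were called lower in 66cl4 (median -2.51). The summed level of these markers was 69.5 to 187.5 CPM in 66cl4 and 137.6 to 1016 CPM in 67NR, and its part in the change of Tbx21, Eomes, Il2rb and Trdc was not tested. Bach2, a repressor that maintains naive lymphocytes and B cells, rose by 1.78 (SE 0.510, adjusted p 0.0309), a call that was lost without any 1 of 67NR animals 1, 4, 5 and 7 (0.0586 to 0.0732). Without 66cl4 animals 5 and 6, Tbx21 and Eomes had adjusted p of 0.0834 and 0.086.

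Genes of naive and circulating T cells were higher in 66cl4, with 4 of 5 called. S1pr1, the receptor that guides lymphocytes out of tissue, rose by 2.25 (SE 0.501, edgeR adjusted p 0.0099), and Ccr7, a lymph node homing receptor, rose by 1.22 (SE 0.273, adjusted p 0.00868, and 0.0527 without 66cl4 animals 5 and 6). Il7r, the interleukin-7 receptor, rose by 1.04 (SE 0.233, adjusted p 0.00819). The call of Il7r was lost without any 1 of 66cl4 animals 4 and 6 and 67NR animals 5 and 7, where its log2 fold change was 0.90 to 0.98. Other leukocytes, among them neutrophils, B cells and dendritic cells, also express genes of this list. In 67NR, S1pr1 was not confined to CD45+ cells, as its mean CD45+ level was 1.39 times the CD45- level and the gates overlapped. The same ratio was 48.05 in 66cl4. Of the 6 neutrophil markers 5 were called higher, with summed levels of 2486 to 6841 CPM in 66cl4 and 386.8 to 2723 CPM in 67NR. The 6 B cell markers had a median of 3.02 with none called, and their part in these changes was not tested.

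**Figure D5:**
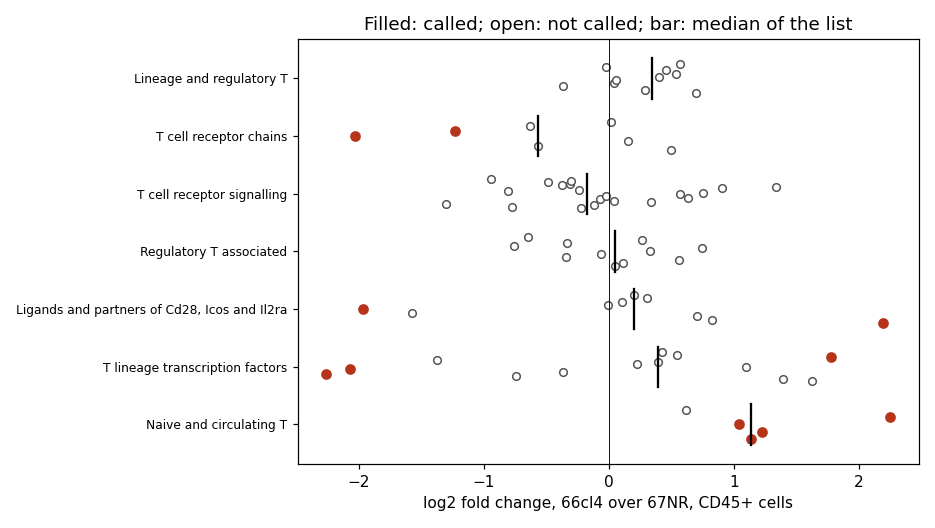
Log2 fold change in CD45+ cells, 66cl4 over 67NR (horizontal axis), of every tested gene of 7 T cell gene lists (rows). Filled points are called genes, open points are not called and bars are medians. The 10 lineage and regulatory T genes have no filled point, while 4 of 5 naive and circulating genes do.

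Markers of the other cells that the CD45+ gate could hold gave 0 called higher and 1 lower of 7 dendritic cell genes, with Siglech at -0.72 (not called) and Xcr1 at -1.30 (called). They gave 0 higher and 1 lower of 7 macrophage genes, whose members with the most normalised counts, Mrc1 (0.02) and C1qb (-0.89), were not called, and 0 higher and 6 lower of 7 mast cell genes, with Cpa3 at -2.97 and Mcpt4 at -3.97. Of the epithelial markers, 2 of 4 tested were called higher, with Krt8 at 4.87 and Cdh1 at 0.80 (not called). Cdh1 did not mark CD45- cells here, as its mean CD45+ level was 18.9 times the CD45- level in 66cl4 and 6.90 times in 67NR. Of the fibroblast and endothelial genes, 1 of 6 and 1 of 3 were called lower. Their part in the levels of the 10 T cell genes was not tested.

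Across all 20 libraries, the genes closest to Cd3e were largely T cell genes. Likeness was the root mean square difference of centred log2 CPM over the 20 libraries. It was computed for 16453 genes, with a median of 3.35. Grap2, an adaptor of T cell receptor signalling, was closest (0.465), and other close genes were the adhesion receptor Cd2 (0.570), Cd3d (0.607), the chromatin organiser Satb1 (0.612), the costimulatory receptor Cd27 (0.620), Cd28 (0.630) and Kbtbd11 (0.665). The other members of the list followed with Cd8b1 at rank 10, Cd4 at rank 42, Foxp3 at rank 44, Cd8a at rank 105, Icos at rank 136, Il2ra at rank 257 and Cd3g at rank 420. The genes closest to Foxp3 were Gm10693 (0.509), Sema4d (0.537), Icosl (0.544), Mbp (0.598), Snx20 (0.599), Xlr4b (0.602), Gm15448 (0.602) and Cd5 (0.617), against a median of 3.26. Of the 10 genes, Cd3d was the nearest to Foxp3 (0.651, rank 14) and Il2ra the next (0.706, rank 35). The rankings cover both gates together and were not repeated within a gate. They take in the CD45- libraries, where the 10 genes had 0 to 44 estimated counts, so differences near the limit of detection enter the ranks.

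In CD45- cells the 10 genes were near the limit of detection, with 0 to 44 estimated counts per library. Only Cd3e passed the filter on low counts, and it did so through its 67NR libraries. It had 1.33, 0, 0.832, 3.19 and 11.98 normalised counts in 66cl4 animals 3 to 7 and 2.63, 18.0, 11.4, 13.3 and 12.3 in 67NR animals 1, 4, 5, 6 and 7. In 67NR, 4 libraries lay near or above the highest of 66cl4, and animal 1 lay below it. Cd3e was called lower in 66cl4 (log2 fold change -1.78, SE 0.736, edgeR adjusted p 0.0465), beside 32.2% of all genes called. Since the gene was tested only because of its level in 67NR, the call is given as a description and is not read further. Ptprc was lower by a like amount (-1.79, adjusted p 0.0361), and the part of residual CD45+ cells in the Cd3e value was not tested. The call was lost with DESeq2 (0.0696), without a filter (0.0795), with all 20 libraries in the fit (0.0865) and without 66cl4 animals 5 and 6 (0.201). Leaving out single libraries gave an adjusted p of 0.00197 to 0.108, and the call held in only 2 of 10 omissions. With the replicate block, whose number pairs nothing between tumours, the edgeR adjusted p was 0.0526.

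The other 9 genes were compared in CD45- cells with a 2-sided exact permutation test of each over the 10 libraries, with no adjustment, for which the smallest p is 0.00794. Cd4 had 0, 1.87, 0.832, 1.06 and 0.998 normalised counts in 66cl4 and 4.39, 18.8, 2.63, 10.2 and 3.07 in 67NR. Its groups did not overlap, which gave the smallest p the exact test allows (0.00794). The share of all genes that do not overlap between the CD45- groups was not computed, so this is not read as a result about Cd4. Its 66cl4 libraries held 0 to 3 estimated counts. The mean Ptprc level of 66cl4 CD45- cells was 0.282 of that of 67NR, and the part of residual CD45+ cells in these values was not tested. The exact p was 0.0238 for Cd8b1, 0.0397 for Il2ra and 0.0397 for Cd28, all lower in 66cl4, and it was 0.0873 for Cd8a and 0.0873 for Icos, 0.452 for Cd3d, 0.50 for Foxp3 and 0.913 for Cd3g. Cd8a in 67NR animal 1 had 22.8 normalised counts in CD45- cells and 113.9 in CD45+ cells, a share of 20%, whereas the same share for Ptprc in that animal was 1.22%.

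The tumour effect was then compared between the gates in 1 model with an interaction term, over all 20 libraries. For 3 of the 10 genes the log2 difference of 66cl4 over 67NR was higher in CD45+ than in CD45- cells, namely Cd4 by 2.80 on the log2 scale (SE 0.920, edgeR adjusted p 0.0196), Il2ra by 1.66 (SE 0.479, adjusted p 0.00881) and Icos by 1.89 (SE 0.627, adjusted p 0.0206). Among all genes tested 43.1% passed the same threshold, and Ptprc itself passed it at 1.65 (adjusted p 0.045). For Cd4 the difference within CD45+ cells was 0.04, and its CD45- libraries held 0 to 25 estimated counts. Those of Il2ra held 1 to 22.3 and those of Icos 0 to 28. These 3 genes passed the filter on low counts through their CD45+ libraries. Their differences therefore rest on CD45- values near the limit of detection, and they are given as a description and not read further. With the animal as a replicate block, which pairs the gates of the same mouse, 5 of the 10 passed, with Cd3e (adjusted p 0.0113) and Cd8b1 (0.0052) added. Without a filter on low counts 1 passed, and 1 passed without the CD45- library of 67NR animal 4, while 6 passed without that of 66cl4 animal 7.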

How the data were processed

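RNA of the sorted cells was made into SENSE mRNA-Seq V2 libraries. The authors demultiplexed with bcl2fastq 2.2.20 and quantified with Salmon 1.3.0 (submitters' processing notes), summed transcripts to genes with tximport, and deposited estimated counts without normalisation. Their methods name GRCh38, a human reference, although the identifiers are those of mouse. The estimation can divide a read among similar genes, so genes with near-identical copies are uncertain.

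Estimated counts were rounded to whole numbers. Symbols matched 51492 identifiers. Depth was 12960000 to 28080314 counts per library, so that 3 counts, the limit that a count of 0 allows, are 1.07e-05% of the deepest library (counting error only). Libraries were grouped by their titles. Replicates all differed by more than sampling noise.

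Comparisons used edgeR 4.0.16 in R 4.3.3 (TMM, quasi-likelihood, robust, default filter at a count of 10 and a total of 15), Benjamini-Hochberg adjusted over all genes tested. A call needed a log2 fold change beyond 1 in either direction with an adjusted p under 0.05; the interaction needed the adjusted p alone. Genes failing the filter were compared with exact permutation tests. Normalised counts used size factors of DESeq2 1.42.0. TPM used GENCODE transcript lengths. The scripts were tested on simulated data. Both gates of 1 animal share its number, which pairs them (correlation of their deviations -0.00326 to 0.324); between tumours the number is only a name. The alternatives were DESeq2, RLE factors, no filter, 10 counts in 5 libraries, all 20 libraries, the replicate block, the omission of 66cl4 animals 5 and 6, and that of each library in turn.

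The 10 genes and all lists were chosen with earlier results of these data known. The genes named are the 10, Ptprc, up to 4 called genes of each T cell list (or the 2 with the most normalised counts where fewer than 2 were called) and up to 2 per list of other cell types. Trac, Trbc1, Trbc2, Tcrg-C2, Tcrg-C4, Cd86 and Icosl were named after their values were seen. Of the genes this rule gives, 2 are not reported here.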

Additional observations from a re-analysis of the deposited data

Results flagged for a closer look

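Among 56 groups of 5 libraries examined for 1 library far from the rest, 11 had one, where chance gives about 1 in 20 groups (2.8 here). Of these, 3 came from the CD45- library of 66cl4 animal 7, with 6.99 normalised counts of Cd3d against 0 to 1.06 in the other 4 libraries, 11.98 of Cd3e against 0 to 3.19, and 8.98 of Foxp3 against 0 to 2.49. Another 4 came from the CD45- library of 67NR animal 4, with 23.3 of Cd3g against 0 to 6.15, 15 of Cd8b1 against 1.75 to 3.07, 9.003 of Foxp3 against 1.75 to 3.13, and 21.0 of Icos against 6.15 to 7.16. Both libraries also had the most Ptprc of their group, 160.7 and 473.4 normalised counts, and its part in these values was not tested.

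In CD45+ cells, 67NR animal 1 stood apart in 3 ratios, with 1 for Foxp3 to Cd3e against 0.367 to 0.530 in the other 67NR libraries, 2.085 for Il2ra to Cd3e against 0.585 to 1.015, and 2.245 for Cd4 to Cd3e against 0.488 to 0.974. In 66cl4 animal 5 the ratio of Cd4 to Cd3e was 0.981 against 0.663 to 0.739 in the other 66cl4 libraries.

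The tumour effect differed between the gates by the interaction test for Cd4 (2.80), Il2ra (1.66) and Icos (1.89), on the log2 scale. Of all genes tested, 43.1% passed the same threshold, and Ptprc was among them, so these genes are not set apart by passing. The CD45- libraries held 0 to 25 estimated counts of Cd4, 1 to 22.3 of Il2ra and 0 to 28 of Icos. These genes passed the filter on low counts through their CD45+ libraries.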

How the results depend on the processing

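None of the 10 genes was called between the CD45+ groups under any alternative, with 0 to 0 on leaving out single libraries. Between the CD45- groups, 1 gene was called, which the filter had admitted through its level in 67NR, against 3 with DESeq2, 3 without a filter, 3 with all 20 libraries, 0 without 66cl4 animals 5 and 6, and 0 to 2 on leaving out single libraries. The filter had admitted Cd4, Il2ra and Icos to the interaction test through their CD45+ levels. For the difference of the tumour effect between gates, 3 genes passed, against 1 without a filter and 1 to 6 on leaving out single libraries. With the replicate block, which pairs the gates of an animal, this became 5, and among the CD45- groups, where the number pairs nothing, the block left 0. In the CD45+ comparison, where the number likewise pairs nothing, the block reversed Cd4 (-0.016), Cd8a (-0.25) and Lcp2 (-0.14) and ended the call of Tcrg-C1 (adjusted p 0.0719). These changes are given for completeness and are not read further. Cd28 became 0.068 without 66cl4 animals 5 and 6. Leaving out single libraries moved Cd4 from -0.15 to 0.25, Cd8a from -0.23 to 0.48, Cd28 from -0.23 to 0.20, Ctla4 from -0.10 to 0.22 and Lcp2 from -0.090 to 0.22, on both sides of 0, and none of these was called. Without a filter, Trdc, Il2rb, Tbx21, Eomes and Bach2 had adjusted p of 0.0603 to 0.0906. The cause was not tested. Counts of called genes over the whole table stayed within 1.5 times their value under every alternative run. Depth limits the CD45- values, where the 10 genes had 0 to 44 counts per library.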
